A study of Mus musculus with 11 samples.

Results

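The fibrillar collagen chains are the subunits of the collagens that assemble into the banded fibrils of bone, cartilage, tendon and skin. The 10 genes described here are Col1a1, Col1a2, Col2a1, Col3a1, Col5a1, Col5a2, Col5a3, Col11a1, Col11a2 and Col27a1. They were taken by name, though with earlier results of these data known, out of 22600 genes in the deposited count table. All 10 passed the filter on low counts, which left 16496 genes for testing. Whole distal tibiae were profiled by strand-specific mRNA sequencing in 1 library from each of 4 Control and 7 BMAd-DTA mice, to ask which genes in bone differ once bone marrow adipocytes (BMAds) are depleted.

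Mice of both groups were C57BL6/SJL, were labelled 24 weeks old, fed ad libitum and given no treatment. Per the study's methods, Control mice also carried both parts of the BMAd-Cre system, an Osterix-driven FLPo recombinase and an FLPo-dependent Cre placed in the Adipoq locus (FAC), so both groups share an altered Adipoq allele. BMAd-DTA mice carried in addition ROSA-DTA, a diphtheria toxin A gene in the Rosa26 locus behind a floxed STOP cassette, which Cre removes in cells that have used both the Osterix and the Adipoq promoters. Such cells die. The study describes recombination as less efficient in young mice. The powdered bone held cortex, marrow and whatever muscle, tendon or cartilage came with it, so a library mixes many cell types.

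Each fibrillar chain is a long helix that repeats a triplet of residues led by glycine, and 3 chains wind into a molecule. Type I collagen, made of the products of Col1a1 and Col1a2, is the bulk of the organic bone matrix laid down by osteoblasts. Type II (Col2a1) is the main collagen of cartilage, type III (Col3a1) is abundant in vessels and loose connective tissue, and types V and XI (Col5a1, Col5a2, Col5a3, Col11a1, Col11a2) are minor chains that nucleate the fibrils and limit their width. Col27a1 encodes a chain of a separate branch of the family that is known from cartilage.

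The repeat is visible in the genes themselves. In the longest protein-coding transcript of each chain (GENCODE M21 on GRCm38), a glycine codon, GGN, led codon triplet after codon triplet without a break for 338 triplets in Col1a1, 339 in Col1a2, 339 in Col2a1, 344 in Col3a1, 338 in Col5a1 and 217 in Col27a1. A run of at least 217 such triplets was then searched on the transcript strand as GG at every ninth base. This cut is the run of Col27a1, the shortest of the 10, so the 10 chains had to pass it. It was reached by 10 of 21877 protein-coding genes, or 0.0457%, so by no gene other than the chains. Every exon that lies inside the run began with the glycine codon and had a length in multiples of 9 bases, and many of them were exons of 54 bases. Col1a1 had 21 exons of 54 bases among 41 in its run, and Col11a1 had 31 among 48. In the sequences that follow, only the glycine codon that leads each codon triplet is in capitals, not a glycine codon at another place. The first exon of that length is given for the 2 type I chains, the cartilage chain, a type V chain and Col27a1, which has the shortest run. Each is written as 1 run in the direction of transcription. These exons are Col1a1 exon 8 at chr11:94939904-94939957 on the plus strand, Col1a2 exon 8 at chr6:4515481-4515534 on the plus strand, Col2a1 exon 10 at chr15:97996489-97996542 on the minus strand, Col5a1 exon 15 at chr2:27965251-27965304 on the plus strand and Col27a1 exon 7 at chr4:63245069-63245122 on the plus strand, all GRCm38 and all coding.
Col1a1: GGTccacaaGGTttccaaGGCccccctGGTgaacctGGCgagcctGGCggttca
Col1a2: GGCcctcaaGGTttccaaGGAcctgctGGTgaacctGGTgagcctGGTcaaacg
Col2a1: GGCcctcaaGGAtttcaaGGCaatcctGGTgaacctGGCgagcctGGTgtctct
Col5a1: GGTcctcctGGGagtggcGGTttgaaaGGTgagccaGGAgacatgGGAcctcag
Col27a1: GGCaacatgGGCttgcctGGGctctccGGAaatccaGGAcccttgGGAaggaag
The 6 capital triplets stand at the same places in all 5 exons, whatever the sequence between them, while the levels of the 5 genes in these libraries ran from 26.7 CPM, counts of a gene per 1000000 counts of the library after TMM scaling of the library's total (the lowest value of Col27a1), to 18037 CPM (the highest of Col1a1).

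The libraries held 16969529 to 18637663 counts in Control (median 17701061) and 17128711 to 18432805 in BMAd-DTA mice (median 17612195), and CPM are per 1000000 of these totals multiplied by edgeR's TMM factors, which lay between 0.968 and 1.04. The labels carry no replicate numbers, so Control 1 to 4 and BMAd-DTA 1 to 7 are names only. Each library is a separate mouse as far as its label shows. Xist was at 13810 to 20260 counts and 4 Y-linked genes together at 0 to 1 counts in every library, a female pattern in both groups. The study's legends of the figures that hold the sequencing panels speak of male mice. The reason for this difference was not tested. Of the marker lists, the 11 osteoblast and osteocyte genes summed to 741 to 1688 CPM in Control and 1750 to 3276 CPM in BMAd-DTA libraries, and Alpl, the alkaline phosphatase of mineralising osteoblasts, was the 1 that passed the test (log2 fold change 1.16, adjusted p = 0.0326, edgeR), though not with Control 1, Control 2 or BMAd-DTA 1, 4 or 6 left out. All 11 were fitted higher at an unadjusted p under 0.05, beside 7.89% of all genes tested, with a median log2 fold change of 1.12. Of 10 adipocyte genes, all were fitted lower in BMAd-DTA mice, beside 8189 of the 16496 genes tested. Retn, which encodes resistin, fell (log2 fold change -1.38, adjusted p = 0.0205, edgeR), a call lost without Control 1, Control 2 or BMAd-DTA 1 or 6. The adipocyte sums overlapped, with 1008 to 1787 CPM in Control and 379 to 1236 CPM in BMAd-DTA libraries. Skeletal muscle markers ranged from 18.1 to 1334 CPM in Control and from 19.7 to 1049 CPM in BMAd-DTA libraries. They were under 30 CPM in Control 4 and in BMAd-DTA 2, 3 and 5.

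Control 1 stood apart from the other Control libraries in most of the chains. Its Col1a1 was 1245 CPM, or 21.2% of the mean of the other 3 Controls, and its Col1a2 was also at 21.2%. Col11a1 stood at 14.6%, Col11a2 at 19.8%, Col5a2 at 36.4% and Col2a1 at 41.1% of the other 3. Col5a3 (65.6%), Col5a1 (75.4%), Col27a1 (84.0%) and Col3a1 (106%) were closer to them. Control 1 also had the lowest osteoblast and osteocyte marker sum, 741 CPM, while its chondrocyte markers (350 CPM) and its tendon and fibroblast markers (439 CPM) lay inside the range of the other Controls. The source of this difference was not tested.

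The fibrillar chains took a larger share of the transcriptome in every BMAd-DTA library than in any Control library. The 10 genes together held 0.292%, 1.15%, 1.28% and 1.21% of the unscaled library totals in Control 1 to 4. In the 7 BMAd-DTA libraries the share was 1.49% at the lowest, 2.25% at the median and 3.56% at the highest. Col1a1 and Col1a2 made up 77.6% to 89.2% of these counts in Control and 87.1% to 92.0% in BMAd-DTA mice, so the summed share is close to a type I collagen measure. Because this is a share of counts in whole bone, more cells that make collagen, more collagen RNA per cell and less RNA from other cells cannot be told apart.

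No single chain passed the test over all genes, and all 10 were fitted higher in BMAd-DTA mice, beside 50.4% of all genes tested. In edgeR's quasi-likelihood fit, with p-values adjusted by Benjamini-Hochberg for 16496 genes, 0 of 10 chains had an adjusted p under 0.05, against 0.0788% of all genes tested (13 genes). Adjusted p ran from 0.0675 to 0.770. At an unadjusted p under 0.05, 8 of 10 chains were higher, beside 7.89% of all genes higher at that level. In 6 of 10 chains every BMAd-DTA library lay above every Control library, beside 1.78% of all genes. On CPM of the library totals alone it was 5 of 10, beside 1.65% of all genes, and Col5a2 was the chain lost. The median log2 fold change of the 10 chains was 1.05, while the median over all genes tested was 0.0018. DESeq2, the tool of the study's own methods, called 5 of the 10 higher, beside 2.78% of all genes called higher by it: Col1a1 (adjusted p = 0.00991), Col1a2 (0.0313), Col2a1 (1.82e-05), Col5a1 (0.000413) and Col27a1 (0.0322).

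**Figure D1:**
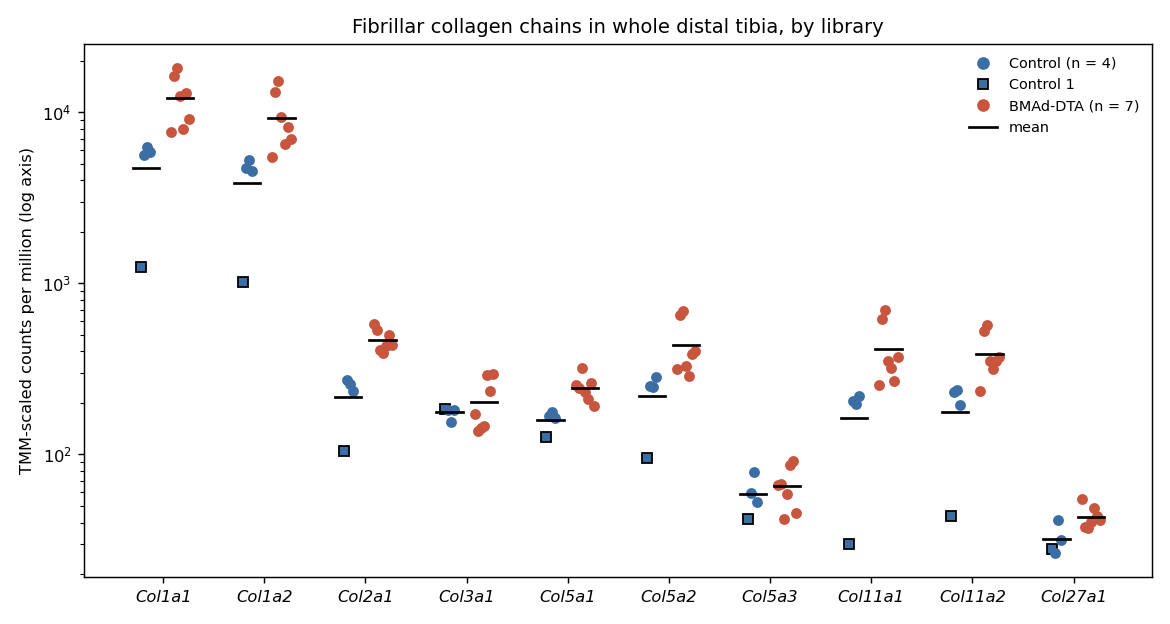
CPM of each chain on a log axis in the 4 Control (blue) and 7 BMAd-DTA (red) libraries, with the group mean as a line and Control 1 as an outlined square. Control 1 lies well below the other Controls for Col1a1, Col1a2, Col2a1, Col5a2, Col11a1 and Col11a2 but not for Col3a1, and the BMAd-DTA points clear all Controls for 6 chains.

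The type I chains were the most abundant of the family. Col1a1 was at 1245, 5588, 6226 and 5823 CPM in Control 1 to 4. It ranged from 7609 to 18037 CPM in BMAd-DTA mice, with a median of 12361 CPM. No BMAd-DTA library was as low as any Control, and BMAd-DTA 2 and 3 were the highest. The mean was 4720 ± 2332 CPM (SD, n = 4) in Control and 12016 ± 4066 CPM (SD, n = 7) in BMAd-DTA mice, with a log2 fold change of 1.35 ± 0.39 (SE; edgeR adjusted p = 0.115). An exact two-sided permutation test of log2 CPM over the 330 splits of 11 libraries gave p = 0.00303, the smallest it can give, before any adjustment.

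Col1a2 encodes the second chain of type I collagen. It was at 1021, 4709, 5230 and 4517 CPM in Control and between 5464 and 15194 CPM in BMAd-DTA mice, with a median of 8220 CPM. The groups did not overlap, but the margin between Control 3 and the lowest BMAd-DTA library was narrow. The log2 fold change was 1.26 ± 0.40 (SE; edgeR adjusted p = 0.142). Without Control 1 the log2 fold change was 1.03 for Col1a1 and 0.94 for Col1a2.

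The ratio of the type I chains varied little. The CPM of Col1a1 over that of Col1a2 lay between 1.19 and 1.29 in Control, Control 1 included, and between 1.19 and 1.57 in BMAd-DTA mice. Its log2 difference was 0.11 (exact permutation p = 0.164, adjusted p = 0.273 over 5 ratios). The library with the fewest type I counts therefore kept the chain ratio of the others.

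Col2a1, the cartilage chain, shared with Col5a1 the lowest adjusted p of the family. It was at 105, 271, 256 and 235 CPM in Control. In BMAd-DTA mice it was 393 CPM at the lowest, 435 CPM at the median and 580 CPM at the highest, so that the lowest BMAd-DTA library was above the highest Control. The log2 fold change was 1.11 ± 0.22 (SE; edgeR adjusted p = 0.0675). Leaving out Control 1 brought it to 0.88.

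Like Col2a1, the other genes by which cartilage is usually recognised did not pass the test. The summed level of the chondrocyte markers, in which Col2a1 is not included, was 272 to 470 CPM in Control and 328 to 519 CPM in BMAd-DTA libraries, and 0 of the 10 tested passed the test. Acan, the main cartilage proteoglycan, had a log2 fold change of 0.18 (edgeR adjusted p = 0.686). Comp, a matrix protein of cartilage and tendon, had 0.12 (adjusted p = 0.764), and Col10a1, of hypertrophic cartilage, had 0.15 (adjusted p = 0.813). The type IX collagen genes, whose products coat type II fibrils, were at means of 0.737 to 2.73 CPM, and Matn1 and Matn3, at 0 to 7 and 0 to 9 counts per library, were too low to test. The type IX log2 fold changes were 0.95 for Col9a1 (edgeR adjusted p = 0.284), 0.47 for Col9a2 (0.445) and 0.42 for Col9a3 (0.486). Col2a1 was thus measured at 105 to 580 CPM in bones where the type IX genes, Matn1 and Matn3 were near 0. Comp was higher, at means of 277 CPM in Control and 301 CPM in BMAd-DTA mice, and made up most of the summed chondrocyte level. Acan was at 48.2 and 54.8 CPM, and Col10a1 at 36.9 and 41.1 CPM. Which cells carried Col2a1 was not tested.

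Col3a1 was at 184, 182, 156 and 183 CPM in Control and at 137 CPM (lowest), 173 CPM (median) and 293 CPM (highest) in BMAd-DTA mice. The groups overlapped: 3 BMAd-DTA libraries (5, 6 and 7) lay above every Control, and BMAd-DTA 2, 3 and 4 lay below every Control. The log2 fold change was 0.21 ± 0.22 (SE; edgeR adjusted p = 0.696). Control 1 was not low for this gene.

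Of the type V chains, Col5a1, which with Col5a2 forms the common type V molecule, was at 127, 167, 177 and 162 CPM in Control and from 192 to 321 CPM in BMAd-DTA mice, with a median of 246 CPM. The groups did not overlap, and the log2 fold change was 0.63 ± 0.13 (SE; edgeR adjusted p = 0.0675), a smaller difference than for type I but with a smaller error. Col5a2 was at 95.1, 251, 248 and 284 CPM in Control and from 289 to 692 CPM in BMAd-DTA mice, with a median of 388 CPM. BMAd-DTA 5 was barely above Control 4 (293 and 295 CPM, in the opposite order, without TMM scaling), and BMAd-DTA 2 and 3 were the highest, as for Col1a1. Its log2 fold change was 1.0 ± 0.31 (SE; edgeR adjusted p = 0.136).

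Col5a3, the least studied type V chain, overlapped widely between the groups. It was at 41.9, 59.4, 79.5 and 52.9 CPM in Control and at 42.2 CPM (lowest), 66.2 CPM (median) and 91.4 CPM (highest) in BMAd-DTA mice. The log2 fold change was 0.16 ± 0.22 (SE; edgeR adjusted p = 0.770). Only 2 of the 7 BMAd-DTA libraries exceeded every Control.

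The type XI chains, which co-assemble with type II in cartilage, had r = 0.94 (Col11a1) and 0.97 (Col11a2) with Col1a1, and 0.72 and 0.73 with Col2a1, over 11 libraries with group means of log2 CPM removed, a description that includes Control 1. Col11a1 was at 30.1, 206, 197 and 219 CPM in Control and from 256 to 694 CPM in BMAd-DTA mice, with a median of 353 CPM. The groups were fully apart. Its log2 fold change was 1.34 ± 0.45 (SE; edgeR adjusted p = 0.158), and it was 0.99 without Control 1. Col11a2 was at 43.8, 232, 237 and 193 CPM in Control and from 235 to 569 CPM in BMAd-DTA mice, with a median of 352 CPM. BMAd-DTA 1 was just under Control 3, and the other 6 were above all Controls. Its log2 fold change was 1.14 ± 0.37 (SE; edgeR adjusted p = 0.151).

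Col27a1 was the least abundant chain. It was at 27.9, 26.7, 41.2 and 31.7 CPM in Control and from 37.4 to 54.6 CPM in BMAd-DTA mice, with a median of 41.5 CPM. The log2 fold change was 0.44 ± 0.13 (SE; edgeR adjusted p = 0.125). Control 3 lay above 3 of the BMAd-DTA libraries, and without Control 3 edgeR called 3 of the 10 chains higher, beside 1.05% of all genes: Col2a1 (adjusted p = 0.0408), Col5a1 (0.0444) and Col27a1 (0.0410). No other single library left out made edgeR call a chain.

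**Figure D2:**
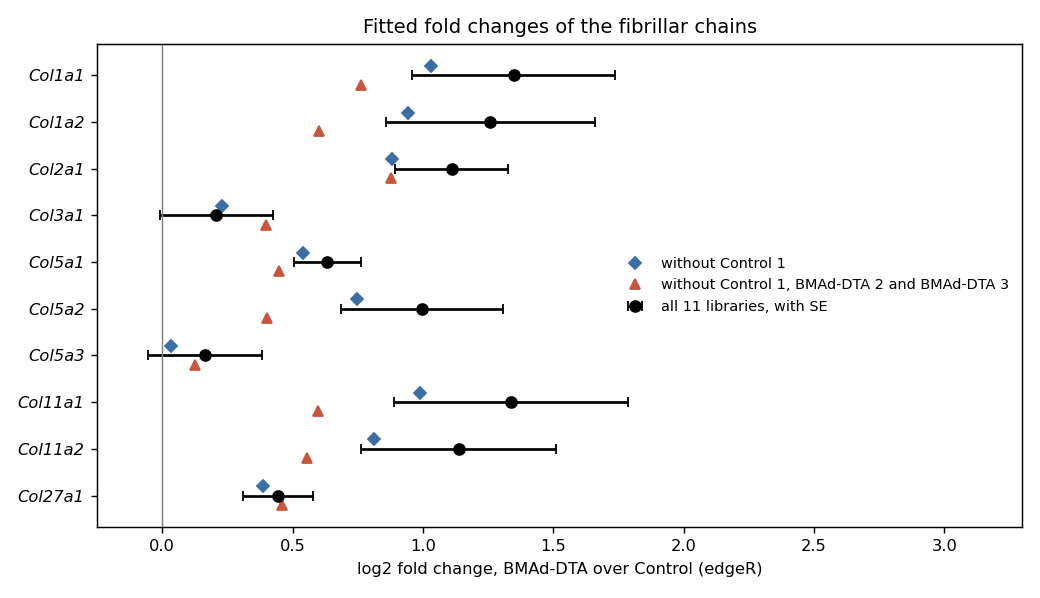
Log2 fold change of each chain, BMAd-DTA over Control, fitted with edgeR on all 11 libraries (black, with SE), without Control 1 (blue) and without Control 1, BMAd-DTA 2 and BMAd-DTA 3 together (red). All points are above 0, and Col1a1, Col1a2, Col5a2, Col11a1 and Col11a2 move furthest toward 0 as these libraries are left out.

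The size of the type I difference was also computed without 3 libraries. Control 1 had the lowest share of fibrillar counts, and BMAd-DTA 2 and 3 had the highest, so leaving them out lowers the difference by the way they were chosen. With all of them left out, the log2 fold change was 0.76 for Col1a1, 0.60 for Col1a2, 0.60 for Col11a1, 0.56 for Col11a2 and 0.40 for Col5a2, and the median over the 10 chains was 0.51. Col2a1, at 0.88, and Col27a1, at 0.46, were moved less.

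Per kilobase of transcript, which allows levels to be set side by side between genes, the order was alike in both groups at its ends and open in its middle. In Control, Col1a1 had a level of 796 ± 393 and Col1a2 of 724 ± 360 CPM per kilobase (SD, n = 4), and in BMAd-DTA mice 2026 ± 686 and 1731 ± 673 (SD, n = 7). Col1a1 was above Col1a2 in 4 of 4 Control and 7 of 7 BMAd-DTA libraries. Col2a1 came next, at 42.5 CPM per kilobase in Control and 91.7 in BMAd-DTA mice. Col5a2, Col3a1 and Col11a2 followed in Control at 33.1, 31.6 and 29.2 CPM per kilobase, with Col3a1 above Col11a2 in 2 of 4 libraries, so these neighbours did not differ beyond their spread. In BMAd-DTA mice the mean of Col3a1, 36.5 CPM per kilobase, stood below Col5a2 (66.1), Col11a2 (64.2) and Col11a1 (53.7). Col11a1 was above Col3a1 in only 4 of 7 of these libraries. Col5a3, at 9.55 and 10.7 CPM per kilobase, and Col27a1, at 4.19 and 5.70, were the lowest in both groups, with Col5a3 above Col27a1 in every library.

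The chains were also compared within a library, where the total cancels. The ratio of Col3a1 to Col1a1 was 0.148 in Control 1, 0.0250 to 0.0325 in the other Controls and 0.00794 to 0.0369 in BMAd-DTA mice, a log2 difference of -1.38 (exact permutation p = 0.0576, adjusted p = 0.144 over 5 ratios). The ratio of Col5a1 to Col1a1 was 0.102 in Control 1, 0.0279 to 0.0298 in the other Controls and 0.0152 to 0.0336 in BMAd-DTA mice, a log2 difference of -0.89 (exact permutation p = 0.0242, adjusted p = 0.121). Without Control 1 these differences were -0.80 and -0.44. None of the 5 ratios passed after adjustment. Col2a1 to Col1a1 differed by -0.33 (exact permutation p = 0.358, adjusted p = 0.382), with 0.0404 to 0.0840 in Control and 0.0225 to 0.0762 in BMAd-DTA mice. Col11a1 to Col2a1 differed by 0.40 (exact permutation p = 0.382, adjusted p = 0.382), with 0.289 to 0.930 in Control and 0.441 to 1.71 in BMAd-DTA mice. A chain composition that differs between the genotypes was therefore not detectable with these 11 libraries.

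**Figure D3:**
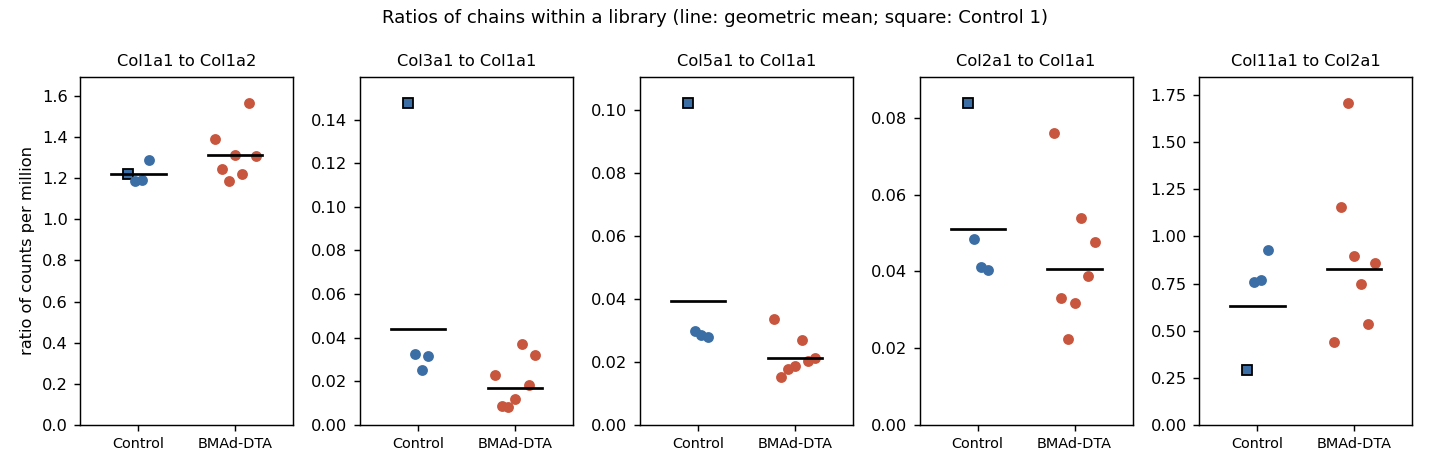
Ratio of the CPM of a pair of chains in each library, on linear axes from 0, with the geometric mean of each group as a line and Control 1 as an outlined square. Control 1 is far above the other libraries for Col3a1 to Col1a1 (0.148) and Col5a1 to Col1a1 (0.102), while Col1a1 to Col1a2 lies between 1.19 and 1.57 throughout.

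Among the 7 BMAd-DTA mice, which spanned Col1a1 levels from 7609 to 18037 CPM, some chains went up with Col1a1 and others did not. For this, 9 relations were computed on log2 CPM, with exact permutation p adjusted over them, and each was repeated without the 2 libraries farthest from the median of Col1a1 on that scale, BMAd-DTA 1 and 5. Col1a2 had Pearson's r = 0.97 (exact permutation, adjusted p = 0.00357) and Spearman's rho = 0.96 (adjusted p = 0.025), and r = 0.95 in the 5 libraries left. Col11a2 had r = 0.89 (exact permutation, adjusted p = 0.0232) and rho = 0.89 (adjusted p = 0.0369), and r = 0.81 without these 2. Col5a2 had r = 0.86 (exact permutation, adjusted p = 0.0290) and rho = 0.86 (adjusted p = 0.0536), and r = 0.78. Col11a1 had r = 0.78 and rho = 0.75, which did not pass (exact permutation, adjusted p = 0.0696 and 0.119), and r = 0.71.

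Col27a1 ran the other way, with r = -0.87 (exact permutation, adjusted p = 0.0232) and rho = -0.89 (adjusted p = 0.0369), and r = -0.72 without BMAd-DTA 1 and 5. Col3a1 had r = -0.66 and rho = -0.64 (exact permutation, adjusted p = 0.154 and 0.208), with r = -0.82 in the 5 libraries. Col5a1 had r = 0.65 and rho = 0.54 (exact permutation, adjusted p = 0.154 and 0.303), with r = 0.90 in the 5. Col2a1 had r = -0.20 and rho = -0.29 (exact permutation, adjusted p = 0.649 and 0.625), and its sign turned to 0.16 without the 2 libraries. Col5a3 had r = -0.30 and rho = -0.21 (exact permutation, adjusted p = 0.539 and 0.662), with r = 0.027. The CPM of all chains in a library share its scaled total as divisor. BMAd-DTA 2 and 3, at the top of Col1a1, also had the highest osteoblast and osteocyte marker sums, 3029 and 3276 CPM.

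**Figure D4:**
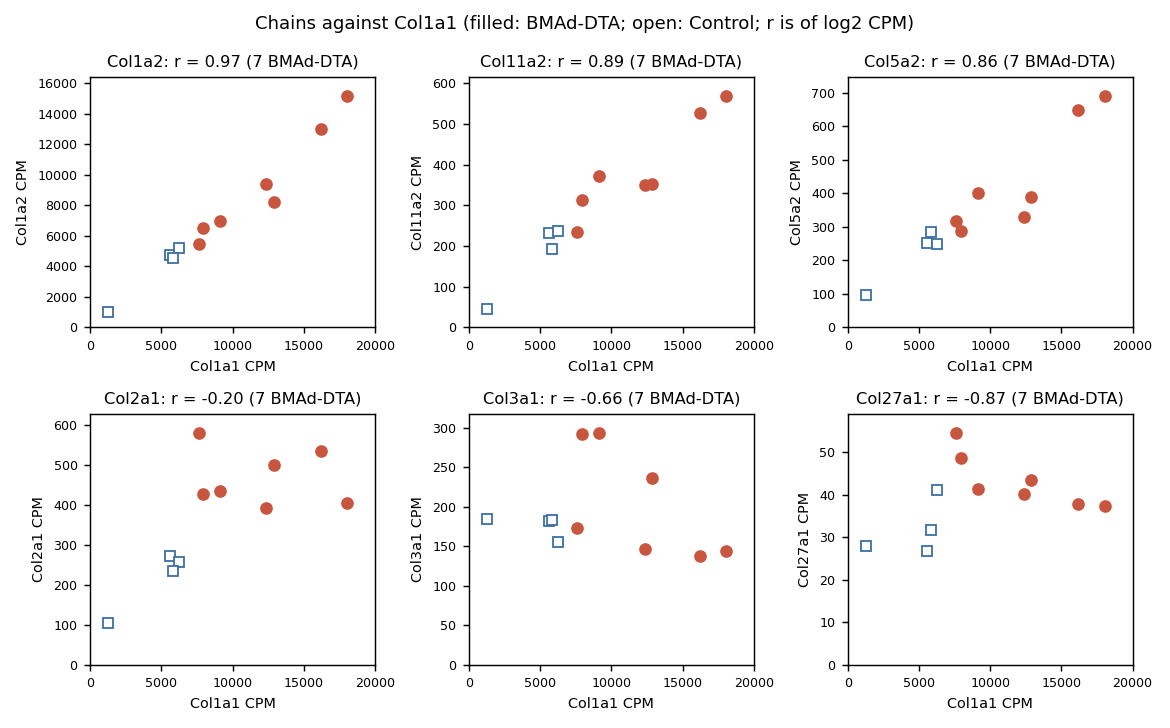
CPM of 6 chains against Col1a1 CPM in the same library, for BMAd-DTA (filled, n = 7) and Control (open, n = 4), with r computed on log2 CPM. Col1a2, Col11a2 and Col5a2 go up with Col1a1 among BMAd-DTA mice (r = 0.97, 0.89 and 0.86), Col27a1 goes down (r = -0.87), and Col2a1 shows no slope (r = -0.20).

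The genes most like Col1a1 were, by the correlation of log2 CPM with group means removed over 11 libraries and among 12972 genes, Col1a2 (r = 0.99), Cpz (0.99), Cthrc1 (0.97), Col11a2 (0.97) and Col22a1 (0.95). Cpz encodes a carboxypeptidase and Cthrc1 a secreted collagen triple helix repeat protein. Control 1 lies far from its group for Col1a1, and the values include it. The 5 genes most like Col2a1 shared no collagen function by name: Igkv17-127 (0.91), Igkv3-12 (0.91), Adamts9 (0.91), Ighv1-50 (0.90) and Igkj4 (0.90), of which 4 are immunoglobulin gene segments. The r between Col2a1 and Col1a1 by this measure was 0.71. These are descriptions over few libraries.

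Procollagen is hydroxylated, folded, exported and trimmed, and collagen is crosslinked in fibrils. A list of 56 genes related to fibril formation was read beside the chains. Besides genes of these steps, it holds 13 fibril binding genes, 8 transcription factors and Col24a1, so its totals are not of procollagen processing alone. Of 54 tested, 1 passed the test: Loxl2, a lysyl oxidase that crosslinks collagen, rose (log2 fold change 0.77, edgeR adjusted p = 0.0326). It was at 31.4, 39.0, 38.9 and 33.2 CPM in Control and 49.4 to 72.4 CPM in BMAd-DTA mice, with no overlap. At an unadjusted p under 0.05, 30 of the 54 were higher and 1 lower, beside 7.89% and 8.53% of all genes. Of the 54, 49 were fitted higher (50.4% of all genes) and 9 had every BMAd-DTA library above every Control (1.78% of all genes), and the median log2 fold change was 0.34. DESeq2 called 19 of them, beside 5.42% of all genes, 18 of them higher (2.78% of all genes). Loxl2 did not pass when Control 1, Control 2 or BMAd-DTA 1, 3, 4 or 6 was left out.

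By step or role, the largest and smallest log2 fold changes spanned wide ranges. Among 13 genes of hydroxylation and folding they were 0.92 for Fkbp10, an endoplasmic reticulum chaperone of procollagen (edgeR adjusted p = 0.0676), and -0.05 for Plod3, a lysyl hydroxylase (0.754). Among 6 of export they were 1.04 for Creb3l1, a transcription factor of secretory cells that make collagen (0.0724), and -0.04 for Mia2, a protein of collagen export. Among 8 tested genes of propeptide removal they were 2.12 for Tll2, a protease related to Bmp1 (0.0675), and -0.06 for Adamts3 (0.940). Tll2 was at 0.412 to 0.830 CPM in Control and 1.12 to 3.88 CPM in BMAd-DTA mice, so its fold rests on low counts.

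Among 5 crosslinking enzymes the largest was 1.12 for Loxl4 (edgeR adjusted p = 0.0720) and the smallest 0.00 for Loxl1 (0.995). Among 13 fibril binding genes they were 1.31 for Col12a1, a collagen that sits on fibril surfaces (0.0675), and 0.04 for Col14a1, its close relative (0.962). Among 8 transcription factors they were 1.12 for Sp7, which encodes Osterix (0.0675), and -0.63 for Sox6 (0.113). Sox6 was at means of 119 CPM in Control and 76.7 CPM in BMAd-DTA mice, and which cells carried it was not tested. Sox9, which drives Col2a1 in chondrocytes, was at 4.83 CPM in Control and 5.51 CPM in BMAd-DTA mice, a log2 fold change of 0.19 (edgeR adjusted p = 0.557). Sp7 drives the FLPo of the model in both groups. Col24a1, a fibrillar collagen of the branch of Col27a1, was at 10.4 ± 4.41 CPM in Control and 21.0 ± 6.50 CPM (SD, n = 4 and 7) in BMAd-DTA mice, with a log2 fold change of 1.01 (edgeR adjusted p = 0.128).

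Marker sums of other tissues that make collagen were set beside the chains. Of the 10 tendon and fibroblast markers 0 were called, and the tendon genes Scx and Tnmd were at means of 1.20 and 1.41 CPM in Control. Of these 10, 8 were fitted higher (50.4% of all genes). At an unadjusted p under 0.05 in edgeR 2 were higher (7.89% of all genes), Tnmd (log2 fold change 0.90) and Mkx (0.70). The 10 summed to 339 to 573 CPM in Control and 419 to 509 CPM in BMAd-DTA libraries. Most of this sum was Cilp and Pi16, at Control means of 250 and 129 CPM, so it says little of the tendon genes. With this sum as a covariate, the log2 fold change was 1.35 for Col1a1 and 1.12 for Col2a1. With a skeletal muscle score as a covariate they were 1.25 and 1.12. In the 3 Control and 4 BMAd-DTA libraries with at least 100 CPM of muscle markers they were 1.26 and 1.17. The osteoclast markers, of cells that resorb bone, summed to 1332 to 2872 CPM in Control and 1804 to 4645 CPM in BMAd-DTA mice, with 0 of 7 called. All 7 were fitted higher (50.4% of all genes), 5 at an unadjusted p under 0.05 (7.89% of all genes). Their median log2 fold change was 1.12, beside 1.05 for the chains, and their part in the chains' values was not tested. Neutrophil markers (19778 to 28800 CPM over all libraries) and erythroid markers (10623 to 24498 CPM) overlapped between the groups in their sums, with 0 called in each. The 7 tested erythroid genes were all fitted lower in BMAd-DTA mice, beside 8189 of the 16496 genes tested. Of these 7, 4 were lower at an unadjusted p under 0.05 in edgeR (8.53% of all genes), and the median log2 fold change was -0.47.

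**Figure D5:**
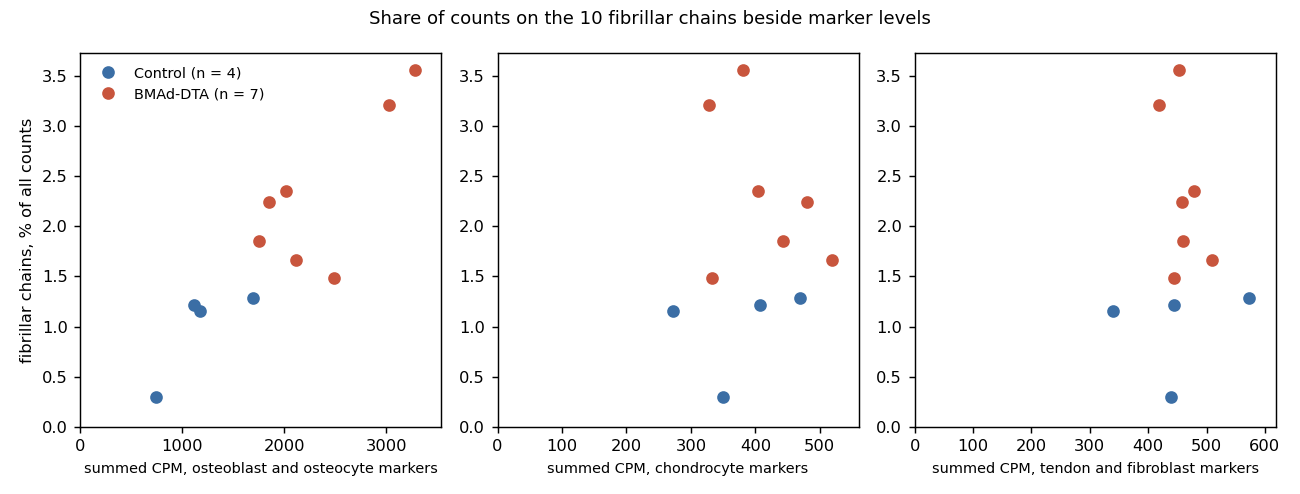
Percent of all counts on the 10 chains in each library against the summed CPM of osteoblast and osteocyte markers (left), chondrocyte markers (middle) and tendon and fibroblast markers (right), for Control (blue, n = 4) and BMAd-DTA (red, n = 7). The share (0.292% to 1.28% in Control, 1.49% to 3.56% in BMAd-DTA) and the osteoblast and osteocyte sum (741 to 1688 and 1750 to 3276 CPM) both separate the groups, while the other marker sums overlap. The chondrocyte sum is mostly Comp, and the tendon and fibroblast sum is mostly Cilp and Pi16.

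Overlap with neighbouring genes was limited. The annotation places 7 other genes across the chains, among them Mir455 inside Col27a1 and 2810430I11Rik on the opposite strand at Col5a1. Counts on the strand not used were at most 0.874% of stranded counts in 9 of the chains in any library, and 1.13% to 6.12% in Col27a1. The chains were counted from unique alignments, from 453 counts for Col27a1 in its lowest library to 317896 for Col1a1 in its highest.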

How the data were processed

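Bulk mRNA libraries came from whole distal tibiae, 4 of Control and 7 of BMAd-DTA mice. The authors checked the reads with FastQC 0.11.9, aligned them to mm10 with STAR and deposited counts per gene without normalization, as per-library tables and as a merged table of 22600 genes, which equals the reverse-strand column. The annotation release was not given in the sources used here, and DESeq2 was the authors' test. Lines that name no gene, 26.3% to 32.3% of the pairs, were left out of totals and tests.

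Tests on these counts used edgeR 4.0.16 under R 4.3.3 (filterByExpr, TMM scaling, estimateDisp, quasi-likelihood test, two-sided, Benjamini-Hochberg adjustment over 16496 genes, threshold 0.05). The common biological coefficient of variation was 0.202. The SE is the log2 fold change over the square root of F. CPM used library totals times their TMM factors, shares used the totals alone, and ratios had an offset of 0.5 counts. No within-group pair of libraries was alike within sampling noise (smallest chi-square per gene 18.4). P-values measure the spread between these mice. Groups came from the labels. Alternatives were DESeq2 1.42.0, limma-voom (limma 3.58.1), other scalings, no filter, per-library and unstranded counts, covariates and each library left out. The steps were tested on simulated data.

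The chains were given by name, and they, the lists of fibril formation genes and the marker lists were chosen with earlier results of these data known. Named are all chains, each list gene with an adjusted p under 0.05 and the largest and smallest fold change per step or role. The 5 genes most like Col1a1 and Col2a1 (mean of at least 50 counts) and defining markers are named too. Sox9, Scx, Tnmd, Acan, Comp and Col10a1 are named as defining markers or regulators. Cilp and Pi16 are named for their part in the tendon and fibroblast sum, and Mkx for its unadjusted p. Exons and lengths came from GENCODE M21 (GRCm38), joined without version numbers.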

Additional observations from a re-analysis of the deposited data

Results flagged for a closer look

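Control 1 was far below the other Control libraries for Col1a1 (1245 CPM), Col1a2 (1021 CPM), Col11a1 (30.1 CPM) and the share of counts on the 10 chains (0.292%). It was far above them for the ratios of Col3a1 to Col1a1 (0.148) and Col5a1 to Col1a1 (0.102). In each case its gap to the nearest Control, over the range of the 4, exceeded Dixon's 95% critical value for 4 libraries. Of these 6 values, all but that of Col11a1 contain Col1a1 or Col1a2 counts, so they are not 6 independent signs. Control 3 was lowest for Col3a1, at 156 CPM beside 182 CPM in the nearest Control, a small difference that stood out only because the other 3 lay close together. In all, 32 sets of values were examined and 7 stood out, where chance gives about 1 in 20. No BMAd-DTA library stood out in this way. The counts on the strand not used, outside the main measurement, overlapped between the groups for all 10 chains.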

How the results depend on the processing

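No paired analysis was possible because the labels carry no replicate numbers, so no pairs of libraries can be formed. The number of chains with an adjusted p under 0.05 was 0 in edgeR and stayed 0 with limma-voom, RLE scaling, library totals alone, no low-count filter, per-library or unstranded counts and each covariate. It was 5 with DESeq2, and 0 to 3 as each library was left out (3 without Control 3). For the fibril formation genes, 1 passed in edgeR, 19 with DESeq2, 2 with limma-voom, 2 with RLE scaling, 0 with the muscle score, 0 with the tendon and fibroblast sum, 0 without Control 1, BMAd-DTA 2 and BMAd-DTA 3 together, and 0 to 13 as each library was left out (13 without Control 3). The median log2 fold change of the chains was 0.51 without those 3 libraries and 0.78 (without Control 1) to 1.15 (without Control 2) as each was left out. The number of chains without overlap was 5 on CPM of library totals alone and 6 to 8 as each library was left out, where it can only grow apart from rescaling. Without the 3 libraries, 2 ratios changed sign, Col2a1 to Col1a1 to 0.14 and Col11a1 to Col2a1 to -0.28, neither past a test before or after. As each library was left out, the log2 difference ranged from -1.06 to -0.44 for Col5a1 to Col1a1, which passed only without BMAd-DTA 1 (-1.0, exact permutation, adjusted p = 0.0238). The cause of these changes was not tested. The 3 settings that keep only libraries with muscle markers, leave out those 3 libraries, or use the tendon and fibroblast sum were chosen after seeing the data. Over all results and settings, 344 values were rated the same, 9 came to pass the threshold, 17 moved and 2 reversed. For fold changes and ratios, the same means an unchanged direction and side of the threshold. For counts it means equal or within a set factor. For the median it means a shift under 0.42, the pooled SD within groups of the chains' mean log2 CPM. No chain or ratio passed in edgeR with all libraries, so none could cease to pass, while the calls of Loxl2, Alpl and Retn were lost with 6, 5 and 4 of the 11 libraries left out in turn. These comparisons rest on 4 Controls, 1 of them far from the rest, and the part of sequencing depth was not tested.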
